A study of Mus musculus with 46 samples.

Results

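The comparison of Nanog BiD with Nanog WT at D1 holds 4 of the 31 time-course RNA-seq libraries of mouse embryonic fibroblasts (MEF) undergoing reprogramming, chosen by their labels alone: 2 of NanogN70+Oct4 and 2 of Nanog+Oct4. Both combinations started from OG2 MEF, which carry an Oct4-GFP reporter and come from embryos of OG2 males and 129 females, and both received Oct4 (gene symbol Pou5f1) from a pMXs retrovirus. They differed in the other delivered factor. Nanog WT is native Nanog, whereas Nanog BiD, called NanogN70 in the labels, has a BRG1-binding piece of SS18 joined to the N terminus of Nanog. D0 is the end of infection, and D1 follows 1 day in the chemically defined medium iCD3. No group without factors was analysed at D1. Nothing in the sources used here says that replicates came from separate cultures. P-values therefore measure the spread between replicate libraries, shared over the 31 of the time course, and this spread may be technical. Viral copies differ between cells, and in a bulk library fewer cells of a type and less RNA per cell cannot be told apart.

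Nanog is a homeodomain transcription factor of the naive pluripotency network of embryonic stem cells, where it acts together with Oct4 and Sox2. BRG1 (Smarca4) is the ATPase of the BAF complex, which slides and evicts nucleosomes, and SS18 is a subunit of that complex. Reprogramming of fibroblasts is known for an early loss of the fibroblast programme, with its collagens, proteoglycans and mesenchymal transcription factors, and a late activation of pluripotency genes. The comparison asks which transcripts differed at the early step when the delivered Nanog carried the BRG1-binding piece.

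Levels are in FPKM (fragments per kilobase of gene model, scaled to the mapped fragments of the library). Differences are those of log2(FPKM + 1), Nanog BiD minus Nanog WT, and this scale understates the change of genes with low values. The 4 libraries had 12728 to 12888 genes at 1 FPKM or more, and replicates correlated across genes at r = 0.985 for Nanog BiD and 0.987 for Nanog WT. Estimated from the steps between low values, depth relative to replicate 1 of Nanog WT was 1.03 in replicate 2 of Nanog WT and 1.14 and 1.17 in the Nanog BiD libraries. Of the low values compared, 19.7% to 25.1% lay at these ratios, so the estimates are rough. The fibroblast list was abundant in all 4 libraries, with summed levels of 9419 and 9312 FPKM with Nanog BiD, compared with 11570 and 10530 with Nanog WT. Of the markers of other cell types, those of neurons and glia were not low: 10 summed to 578 and 623 FPKM with Nanog BiD, compared with 722 and 577 with Nanog WT and 27.5 and 17.8 in MEF. The 10 primitive endoderm genes summed to 165 to 198 FPKM and the 10 adipocyte and lipid genes to 54.4 to 113, compared with 258 and 299.6 and with 181 and 122 in MEF. Other lists were lower, with 13 macrophage markers summing to 12.2 to 46.1 FPKM, 8 endothelial markers to 4.61 to 7.04 and 4 skeletal muscle markers to 0.623 to 2.25.

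The delivered factors were examined before the other genes. Nanog stood at 1544 and 1347 FPKM with Nanog BiD, against 1299 and 1363 with Nanog WT (log2 difference 0.12, SE 0.20, limma adjusted p = 0.934). Pou5f1 was at 8147 and 5037 FPKM against 6036 and 5218 (a difference of 0.19 with SE 0.36 and adjusted p = 0.943). The libraries of the combinations overlapped for both factors. The table does not separate delivered from endogenous transcripts, but MEF had 0.235 and 0.229 FPKM of Nanog. Ss18, of which the fusion holds a piece, was at 148 and 92.4 FPKM with Nanog BiD, against 40.9 and 35.9 with Nanog WT (a difference of 1.59 with SE 0.17 and adjusted p = 1.11e-05). This is the direction given by the study's description of the fusion, as the labels do not name Ss18.

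At D1, 224 of 16842 tested genes were called different (1.33%), 62 of them higher (0.368%) and 162 lower (0.962%) with Nanog BiD. Calls were limited to genes that differed at least 2-fold on the log2 scale (1 unit) and had a limma adjusted p under 0.05. The lower genes included secreted and matrix proteins, protease inhibitors of the Serpinb family and interferon-inducible PYHIN genes, and the higher ones included the homeobox gene Dlx1 and the transcription factor Myc. The libraries of the combinations were separated for all 224, but 26.0% of all tested genes were separated with Nanog BiD higher and 19.6% with Nanog BiD lower. The median log2 difference over all tested genes was 0.02. Some rows are aliases with identical values, and the 224 rows hold 220 distinct profiles.

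The calls rest on a spread shared over all 16 time-course groups. With the spread of the 4 D1 libraries alone limma called 0 genes, with 2526 at an unadjusted p under 0.05 (2266 in the fit over all groups). With 1 D1 library left out 136 to 214 genes were called, 136 without replicate 1 of Nanog BiD.

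**Figure D1:**
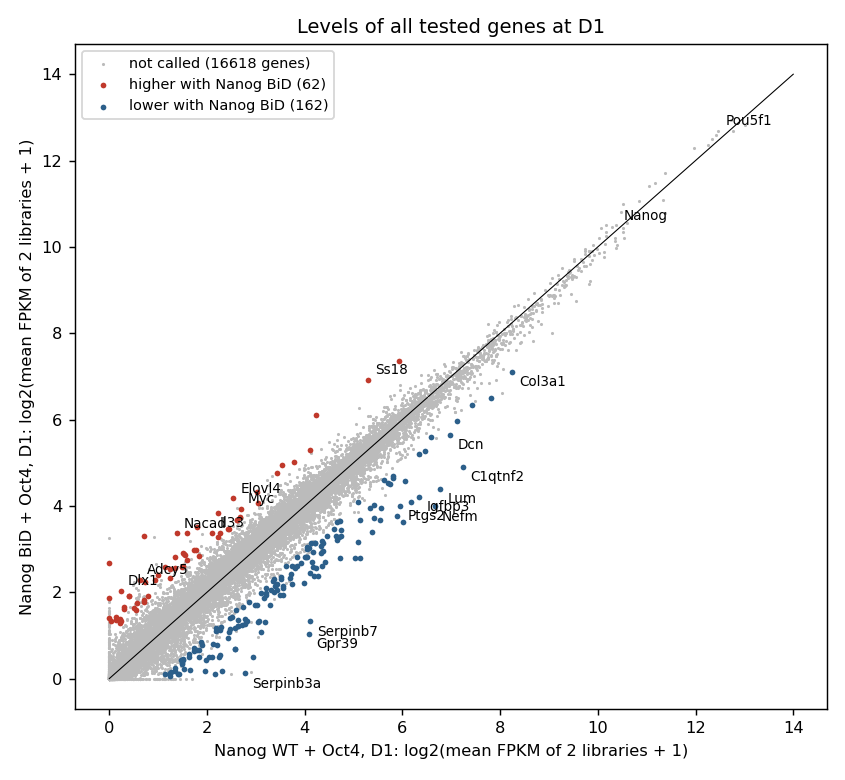
Level of each tested gene at D1 with Nanog BiD (vertical axis) against Nanog WT (horizontal axis), each as log2(mean FPKM of 2 libraries + 1), with called genes coloured. The 162 lower genes lie below the diagonal and the 62 higher genes above it, and Nanog and Pou5f1 lie near it.

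The promoters of some lower genes are shown here because, of 6 motifs searched, AP-1 (bound by Fos and Jun dimers) had the share that differed by most percentage points between the windows of lower genes and those of all genes (by ratio CRE differed more, and was the rarer motif in lower genes). RefSeq windows (GRCm38.p6, 300 bases, 250 before to 50 after 1 listed transcription start per gene) were found for 156 of the 224 called rows. The start used was the end of the gene model for 56.3% of tested genes, 74 of 115 lower and 27 of 41 higher genes, and lay elsewhere for the others. It lay inside the gene model by 10531 bases for Serpinb2, 8620 for Sele and 1332 for Dlx1, and at its start for Gpr39, Serpinb7 and Col6a1. The letters TGANTCA, searched on both strands, were in 15 of 115 windows of lower genes (13%), 2 of 41 windows of higher genes (4.88%) and 5.07% of the 11953 windows of tested genes. The shares in lower, higher and all windows were 15.7%, 12.2% and 12.3% for TEAD (GGAATG), 19.1%, 17.1% and 17.7% for the E-box CAGGTG, 3.48%, 0% and 1.60% for the octamer ATGCAAAT, 0.87%, 2.44% and 1.95% for SOX (AACAATG) and 0.87%, 2.44% and 3.06% for CRE (TGACGTCA). A match describes the letters and is not a binding site, and no test was made. The windows of 5 of the 15 lower genes follow, with the AP-1 letters in capitals. Dlx1, which was higher, stands beside them and holds none, like most windows of lower, higher and all genes.
Gpr39 (chr1:125676746-125677045, plus strand, first matched base at -133): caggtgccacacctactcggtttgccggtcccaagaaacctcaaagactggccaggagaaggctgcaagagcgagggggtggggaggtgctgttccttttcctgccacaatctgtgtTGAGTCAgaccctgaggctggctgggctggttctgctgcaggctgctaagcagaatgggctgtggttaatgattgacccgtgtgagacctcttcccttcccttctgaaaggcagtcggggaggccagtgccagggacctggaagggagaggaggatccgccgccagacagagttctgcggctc
Serpinb7 (chr1:107422439-107422738, plus strand, first matched base at -45): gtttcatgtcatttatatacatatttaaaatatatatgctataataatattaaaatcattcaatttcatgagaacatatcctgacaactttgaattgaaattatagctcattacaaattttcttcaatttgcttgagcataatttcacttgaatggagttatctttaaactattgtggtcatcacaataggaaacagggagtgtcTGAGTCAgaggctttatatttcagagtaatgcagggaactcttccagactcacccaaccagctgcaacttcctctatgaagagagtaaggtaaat
Serpinb2 (chr1:107511173-107511472, plus strand, first matched base at -94): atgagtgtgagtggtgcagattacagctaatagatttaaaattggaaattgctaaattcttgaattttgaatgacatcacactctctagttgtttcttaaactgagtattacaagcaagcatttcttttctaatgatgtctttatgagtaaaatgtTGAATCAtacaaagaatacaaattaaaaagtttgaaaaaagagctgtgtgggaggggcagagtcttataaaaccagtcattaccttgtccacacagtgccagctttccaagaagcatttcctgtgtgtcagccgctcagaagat
Sele (chr1:164047984-164048283, plus strand, first matched base at -73): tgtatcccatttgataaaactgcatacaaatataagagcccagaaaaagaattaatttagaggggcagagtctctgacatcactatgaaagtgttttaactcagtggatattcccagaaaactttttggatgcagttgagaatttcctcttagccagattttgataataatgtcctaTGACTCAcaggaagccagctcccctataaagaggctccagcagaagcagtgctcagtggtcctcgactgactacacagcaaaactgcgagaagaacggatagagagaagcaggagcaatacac
Col6a1 (chr10:76725995-76726294, minus strand, first matched base at -90): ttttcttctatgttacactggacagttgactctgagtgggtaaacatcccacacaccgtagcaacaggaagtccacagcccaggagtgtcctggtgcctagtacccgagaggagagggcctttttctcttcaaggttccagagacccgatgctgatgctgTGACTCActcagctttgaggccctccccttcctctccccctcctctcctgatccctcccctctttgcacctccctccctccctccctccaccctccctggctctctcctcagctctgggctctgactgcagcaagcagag
Dlx1 (chr2:71529195-71529494, plus strand): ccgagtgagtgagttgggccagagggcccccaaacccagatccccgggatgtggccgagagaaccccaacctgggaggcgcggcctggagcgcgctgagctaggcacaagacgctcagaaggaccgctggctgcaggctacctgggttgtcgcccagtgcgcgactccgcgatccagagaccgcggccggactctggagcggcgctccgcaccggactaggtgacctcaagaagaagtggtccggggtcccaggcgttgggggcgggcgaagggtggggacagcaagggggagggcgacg

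Gpr39, a zinc-sensing G protein-coupled receptor, had the lowest log2 difference of the named genes. It was at 0.860 and 1.24 FPKM with Nanog BiD, against 16.5 and 15.5 with Nanog WT (a difference of -3.06 with SE 0.27 and adjusted p = 1.73e-06). MEF had 2.00 and 1.86 FPKM. Lypd1, a GPI-anchored protein of the Ly6 family, was at 0.289 and 0.520 FPKM against 7.20 and 6.24 (a difference of -2.46 with SE 0.26 and adjusted p = 1.09e-05). Lypd1 was at 0.621 and 0.433 FPKM in MEF, so both genes were well above MEF with Nanog WT and not with Nanog BiD. Gpr39 (chromosome 1, 125676996 to 125873862, GRCm38) and Lypd1 (125867622 to 125913175) overlap at their ends. Whether the counting used strand is not given in the sources used here, so reads in the overlap may belong to either.

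The Serpinb genes encode intracellular inhibitors of serine and cysteine proteases. Serpinb7 was at 1.16 and 1.85 FPKM with Nanog BiD, against 19.5 and 12.7 with Nanog WT (a difference of -2.76 with SE 0.21 and adjusted p = 3.94e-07). Serpinb3a was at 0.0728 and 0.106 FPKM against 4.83 and 6.88 (a difference of -2.64 with SE 0.34 and adjusted p = 1.45e-04). Serpinb2, the plasminogen activator inhibitor PAI-2, was at 3.94 and 3.29 FPKM against 13.8 and 15.8 (a difference of -1.77 with SE 0.15 and adjusted p = 1.72e-06). Each was near silent a day earlier: Serpinb7 and Serpinb3a were listed at 0 in all 4 D0 libraries, and Serpinb2 was at 0.0552 and 0.138 FPKM with Nanog BiD, against 0.364 and 0.0852 with Nanog WT.

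The Serpinb family was examined as a whole after these values were seen. Of 13 tested members 5 were lower with Nanog BiD and 0 were higher, where 0.962% and 0.368% of all genes were. The others of the 5 were Serpinb8 (-1.20) and Serpinb3b (-1.18). These 5 are the tested members on chromosome 1, between 107045587 and 107608978, and none of the 8 tested members on chromosome 13 was called (log2 differences -1.06 to 0.64). Serpinb3a and Serpinb3b are close copies between which reads may be split.

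PYHIN genes encode interferon-inducible sensors of DNA and lie in a cluster on chromosome 1. Ifi204 was at 5.55 and 6.26 FPKM with Nanog BiD, against 36.9 and 30.7 with Nanog WT (a difference of -2.33 with SE 0.25 and adjusted p = 1.49e-05). The family was also examined after this value was seen. Of 11 tested rows 7 were lower and 0 higher, where 0.962% and 0.368% of all genes were. The log2 differences were -1.98 for Ifi211, -1.92 for Mnda, -1.89 for Ifi209 (listed also as Pyhin1), -1.62 for Ifi205 and -1.33 for Ifi202b. Ifi203 (0.23), Ifi207 (-0.28), Mndal (-0.14) and Aim2 (-0.01) were not called. As these genes are close copies, the assignment of reads between them is uncertain. Mnda followed Ifi211 at a lower level, with 5.613 and 6.302 FPKM with Nanog BiD, against 29.27 and 21.69 with Nanog WT. Ifi211 was at 8.985 and 9.971 FPKM against 46.53 and 34.66. The 7 lower rows are therefore not 7 separate signals. Of the 38 tested genes in the interferon-stimulated list 0 were called, with a median of -0.12, and Xaf1 was farthest from 0 (-0.75).

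The remaining 12 lowest genes included regulators of growth factor signalling. Igfbp3, which binds insulin-like growth factors outside the cell, was at 15.9 and 19.2 FPKM with Nanog BiD, against 85.6 and 74.7 with Nanog WT (a difference of -2.13 with SE 0.17 and adjusted p = 3.94e-07). Dusp14, a phosphatase that acts on MAP kinases, was at 6.03 and 5.85 FPKM against 36.4 and 26.5 (a difference of -2.21 with SE 0.21 and adjusted p = 6.03e-06). C1qtnf2, a secreted protein of the C1q and TNF related family, was at 36.4 and 21.3 FPKM against 174 and 129 (a difference of -2.38 with SE 0.43 and adjusted p = 0.00292). For each the higher Nanog BiD library was far below the lower Nanog WT library. This is in part fixed by the choice of genes with separated libraries, and 19.6% of all genes were separated in this direction. The call of C1qtnf2 was lost without replicate 2 of Nanog BiD (-2.01) or without replicate 1 of Nanog WT (-2.17).

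Neuronal genes were among the 12 lowest as well. Nefm, the medium neurofilament subunit, was at 19.6 and 10.3 FPKM with Nanog BiD, against 126 and 73.7 with Nanog WT (a difference of -2.67 with SE 0.39 and adjusted p = 4.60e-04). Nefl, the light subunit, was at 17.3 and 8.11 FPKM against 76.9 and 39.4 (a difference of -2.12 with SE 0.34 and adjusted p = 0.00120). Vgf, a precursor of secreted neuropeptides, was at 19.7 and 12.1 FPKM against 83.0 and 59.2 (a difference of -2.11 with SE 0.28 and adjusted p = 1.45e-04). In all 3 genes replicate 1 was above replicate 2 in both combinations, and MEF were below 1 FPKM. Nefm and Nefl lie close together on chromosome 14, and Nefm overlaps A230070E04Rik. Nefm and Nefl, both neurofilament genes, were the only calls among the 24 tested genes of the neural patterning list. Over all genes 0.962% were lower and 0.368% higher. Of 10 neuron and glia markers 0 were called (Stmn2 farthest from 0, 0.70, adjusted p = 0.0387, under the fold limit).

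**Figure D2:**
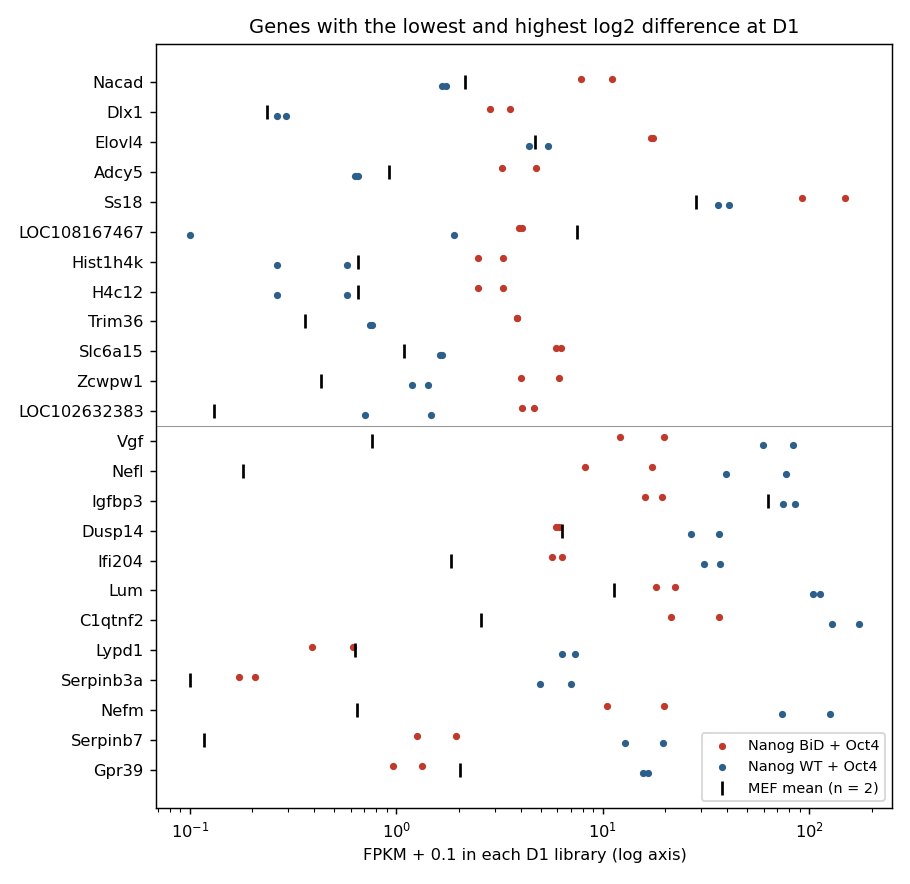
FPKM + 0.1 in each of the 4 D1 libraries (log axis) for the 12 lowest and the 12 highest named genes, with the mean of the 2 MEF libraries as a black tick. Gpr39 is at 16.5 and 15.5 FPKM with Nanog WT but 0.860 and 1.24 with Nanog BiD, and Dlx1 is at 0.165 and 0.192 with Nanog WT but 3.44 and 2.75 with Nanog BiD.

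Of 29 tested fibroblast identity genes 5 were lower with Nanog BiD and 0 higher, where 0.962% and 0.368% of all genes were, with a median log2 difference of -0.30. Lum (lumican), a leucine-rich proteoglycan that binds collagen, was at 17.9 and 22.3 FPKM with Nanog BiD, against 113 and 104 with Nanog WT (a difference of -2.38 with SE 0.25 and adjusted p = 1.09e-05). Dcn (decorin), of the same protein family, was at 45.8 and 52.8 FPKM against 126 and 125 (a difference of -1.34 with SE 0.30 and adjusted p = 0.0161). Col3a1, a fibrillar collagen chain, was at 149 and 124 FPKM against 328 and 279 (a difference of -1.14 with SE 0.23 and adjusted p = 0.00639). The libraries did not overlap, as for all 224 called genes, and the Nanog WT libraries of Dcn nearly coincided.

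Snai2, a repressor of epithelial genes in mesenchymal cells, was at 9.45 and 14.2 FPKM with Nanog BiD, against 30.9 and 37.5 with Nanog WT (a difference of -1.48 with SE 0.27 and adjusted p = 0.00395). Dpt (dermatopontin), a matrix protein, was at 0.145 and 0.0351 FPKM against 1.07 and 1.67 (a difference of -1.11 with SE 0.26 and adjusted p = 0.0203). The position of these genes relative to MEF differed. Lum was at 20.7 and 1.63 FPKM in the MEF libraries and Dcn at 19.2 and 5.32, so Dcn was above MEF in both combinations and Lum with Nanog WT. Snai2 was at 36.3 and 31.5 FPKM in MEF and Col3a1 at 676 and 277, and both were below MEF with Nanog BiD. Lum alone kept its call whichever D1 library was left out, and over the alternatives other than the spread of the 4 libraries alone 2 to 7 genes of the list were called.

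Of 33 collagens and matrix genes 3 were lower and 0 higher, where 0.962% and 0.368% of all genes were, with a median of -0.40. Ogn (osteoglycin), a proteoglycan, was at 4.93 and 11.1 FPKM with Nanog BiD, against 22.7 and 43.1 with Nanog WT (a difference of -1.93 with SE 0.43 and adjusted p = 0.0147), and its gene model overlaps Cenpp. Col6a1, a chain of microfibrillar collagen, was at 23.7 and 22.6 FPKM against 49.8 and 47.3 (a difference of -1.04 with SE 0.23 and adjusted p = 0.0143). Mfap5, a protein of elastic microfibrils, was at 0.209 and 0.504 FPKM against 1.81 and 1.68 (a difference of -1.03 with SE 0.23 and adjusted p = 0.0148). The list summed to 2190 and 2464 FPKM with Nanog BiD, 3118 and 3728 for Nanog WT and 8052 and 8074 in MEF, so matrix transcripts were below MEF in both. Each of the 3 calls was lost with some D1 library left out.

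Serpinb2 was the 1 call among 22 matrix proteases and inhibitors (median -0.33), where 0.962% of all genes were lower. No gene was called among 22 contractile and SRF target genes (median -0.08), where Tagln was farthest from 0 (-0.75). No gene was called among 22 TGF-beta targets and regulators (median -0.07). There Ccn2, a matricellular protein, was farthest from 0 at 28.0 and 42.2 FPKM against 56.1 and 106 (a difference of -1.14 with SE 0.31 and adjusted p = 0.0525).

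Of 28 tested cytokines, chemokines and adhesion genes 4 were lower and 1 was higher with Nanog BiD, where 0.962% and 0.368% of all genes were, with a median of -0.28. Ptgs2 (COX-2), the inducible enzyme of prostaglandin synthesis, was at 13.2 and 17.0 FPKM with Nanog BiD, against 50.7 and 71.9 with Nanog WT (a difference of -1.94 with SE 0.20 and adjusted p = 1.09e-05). Cxcl12, a chemokine of stromal cells, was at 1.43 and 1.67 FPKM against 6.20 and 4.27 (a difference of -1.27 with SE 0.28 and adjusted p = 0.0146). The call of Cxcl12 was lost without replicate 1 (-1.21) or replicate 2 (-1.34) of Nanog BiD, or without replicate 1 of Nanog WT (-1.05). Il33, an alarmin cytokine, differed in the other direction, at 8.84 and 9.93 FPKM with Nanog BiD, against 2.97 and 3.66 with Nanog WT (a difference of 1.27 with SE 0.22 and adjusted p = 0.00187).

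The calls of Sele and Ccl8 also rested on single libraries. Sele (E-selectin), an adhesion receptor for leukocytes, was at 115 and 62.5 FPKM with Nanog BiD, against 302 and 144 with Nanog WT (a difference of -1.29 with SE 0.33 and adjusted p = 0.0387). The chemokine Ccl8 was at 9.05 and 1.91 FPKM against 22.9 and 10.5 (a difference of -1.61 with SE 0.40 and adjusted p = 0.0309). In both genes replicate 1 was above replicate 2 in each combination. Without replicate 2 of Nanog BiD the differences were -0.85 for Sele and -0.72 for Ccl8, and without replicate 1 of Nanog WT -0.76 and -1.08, and neither was then called. Sele was at 0.0161 and 0.0315 FPKM in MEF and at 0 to 0.432 FPKM in the 4 D0 libraries, far below all D1 libraries. None of 16 antigen presentation genes was called (median -0.07, B2m farthest from 0 at -0.54).

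The Raet1 genes, which encode ligands of the NK cell receptor NKG2D, were grouped after their values were seen. All 5 were lower, where 0.962% of all genes were, with log2 differences of -1.25 to -1.08. They are close copies and are not 5 independent measurements.

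Among the higher genes Nacad, a paralogue of the alpha subunit of the nascent polypeptide-associated complex, was at 11.0 and 7.70 FPKM with Nanog BiD, against 1.63 and 1.57 with Nanog WT (a difference of 1.97 with SE 0.20 and adjusted p = 1.09e-05). Dlx1, a homeobox factor of forebrain interneurons and facial mesenchyme, was at 3.44 and 2.75 FPKM against 0.165 and 0.192 (a difference of 1.79 with SE 0.14 and adjusted p = 3.94e-07). MEF had 0.209 and 0.0627 FPKM of Dlx1, so Nanog WT libraries lay within the MEF range and Nanog BiD libraries above it.

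The Dlx family was examined after this value was seen. Of 5 tested rows 3 were higher and 0 lower, where 0.368% and 0.962% of all genes were. Dlx1as was at 10.4 and 7.29 FPKM with Nanog BiD, against 0.843 and 0.420 with Nanog WT (a difference of 2.58 with SE 0.19 and adjusted p = 3.94e-07), and the neighbouring Dlx2 was at 2.33 and 2.71 FPKM against 0.163 and 1.11 (a difference of 1.17 with SE 0.26 and adjusted p = 0.0155). MEF had 2.28 and 2.85 FPKM of Dlx2. Unlike for Dlx1, Nanog BiD libraries thus lay within the MEF range of Dlx2 and Nanog WT libraries below it. Dlx1as (71530638 to 71537891) overlaps Dlx1 (71528113 to 71533981) on chromosome 2, and without strand their reads cannot be told apart. Dlx5, on chromosome 6, had a difference of -0.80 (adjusted p = 0.0172), under the fold limit, and Dlx3 was at or near 0.

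Other higher genes act in lipid synthesis, signalling and transport. Elovl4, which elongates very long chain fatty acids, was at 17.0 and 17.3 FPKM with Nanog BiD, against 5.31 and 4.29 with Nanog WT (a difference of 1.65 with SE 0.26 and adjusted p = 7.28e-04). Adcy5, an adenylate cyclase, was at 4.65 and 3.15 FPKM against 0.532 and 0.554 (a difference of 1.65 with SE 0.24 and adjusted p = 4.76e-04). Slc6a15, a transporter of neutral amino acids, was at 5.81 and 6.16 FPKM against 1.53 and 1.57 (a difference of 1.45 with SE 0.18 and adjusted p = 7.49e-05). Replicates of these genes lay close together compared with the distance between the combinations. As called genes with separated libraries were chosen, this is in part fixed by the choice. The ubiquitin ligase Trim36 was at 3.72 and 3.74 FPKM against 0.666 and 0.645 (a difference of 1.51 with SE 0.17 and adjusted p = 3.35e-05).

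The other highest genes held less firmly. Zcwpw1, a histone methylation reader known from meiosis, was at 6.06 and 3.93 FPKM with Nanog BiD, against 1.32 and 1.09 with Nanog WT (a difference of 1.42 with SE 0.25 and adjusted p = 0.00220), and the call was lost without replicate 1 of Nanog BiD (1.16). The histone gene H4c12, listed also as Hist1h4k, was at 3.19 and 2.38 FPKM against 0.165 and 0.478 (a difference of 1.52 with SE 0.39 and adjusted p = 0.0378). LOC108167467 (log2 difference 1.55) was listed at 0 in 1 Nanog WT library, and LOC102632383 had a difference of 1.42. Each of these 3 calls was lost with at least 3 of the 4 libraries when they were left out 1 at a time.

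**Figure D3:**
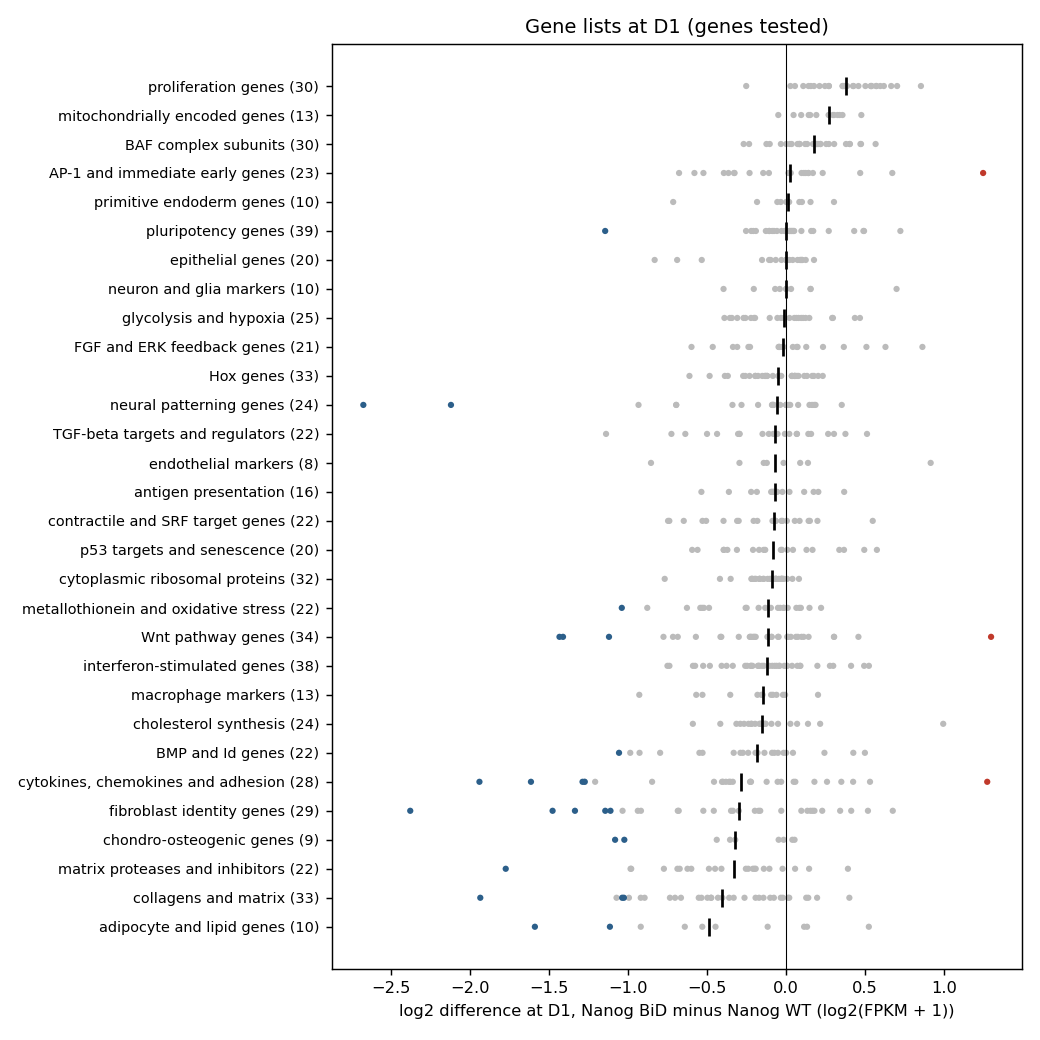
Log2 difference at D1 (horizontal axis, Nanog BiD minus Nanog WT, log2(FPKM + 1)) of each tested gene in the lists with at least 8 tested genes, with called genes coloured and the list median as a black tick. The median is 0.38 for proliferation genes and -0.40 for collagens and matrix.

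Myc, which drives growth and proliferation, was the 1 call among 23 AP-1 and immediate early genes (median 0.02, with 0.368% of all genes higher). It was at 15.9 and 12.7 FPKM with Nanog BiD, against 6.14 and 4.78 with Nanog WT (a difference of 1.25 with SE 0.28 and adjusted p = 0.0179), and at 28.2 and 30.9 in MEF, above all 4 libraries. The call was lost without replicate 1 of Nanog BiD (1.09), replicate 1 of Nanog WT (1.40) or replicate 2 of Nanog WT (1.09).

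None of 30 proliferation genes was called, but their median was 0.38, against 0.02 over all genes. The libraries were separated with Nanog BiD higher for 22 of the 30 (26.0% of all genes) and with Nanog BiD lower for 0 (19.6%). Mcm5, a subunit of the replicative helicase, was farthest from 0, at 20.5 and 18.7 FPKM with Nanog BiD, against 11.1 and 9.76 with Nanog WT (a difference of 0.85 with SE 0.29 and adjusted p = 0.139). The list summed to 868 and 980 FPKM with Nanog BiD, 716 and 842 for Nanog WT and 835 and 896 in MEF. Over the alternatives the median ranged from 0.35 to 0.45, and at D0 and D3 it was 0.16 and 0.19. Both Nanog BiD libraries were the deeper ones (1.14 and 1.17 against 1.03), and the part of depth in this shift was not tested.

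Of 39 tested pluripotency genes 0 were higher and 1 was lower at D1, where 0.368% and 0.962% of all genes were. Their median was 0.00, and 11 were listed at 0 in all 4 libraries. The call was Klf5, a Kruppel-like factor of the early embryo, at 11.0 and 9.06 FPKM with Nanog BiD, against 22.6 and 24.0 with Nanog WT (a difference of -1.15 with SE 0.27 and adjusted p = 0.0207). MEF also express it, at 13.0 and 8.85 FPKM. The call was lost with any 1 of the 4 libraries left out (-1.27 to -1.02). Sox2, which was not delivered, was at 1.25 and 0.186 FPKM against 0.464 and 0.846, with overlapping libraries. No gene was called among 20 epithelial genes (Krt19 farthest from 0, -0.83) or 10 primitive endoderm genes (Cited1, -0.71).

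Sets of genes were also taken by their level in mES. Of 1086 tested genes that mES had at 4-fold the MEF level or more, 4 were higher (0.368%) and 8 lower (0.737%) with Nanog BiD at D1, against 0.368% and 0.962% of all genes. Of 1099 genes that MEF had at 4-fold the mES level or more, 5 were higher (0.455%) and 38 lower (3.46%). The MEF set had 9 higher (0.819%) and 16 lower (1.46%) at D0, where 0.422% and 0.338% of all genes were, and 18 higher (1.64%) and 107 lower (9.74%) at D3, where 1.25% and 2.45% were. The mES set had 27 higher (2.49%) and 23 lower (2.12%) at D3. mES was a single library. None of 30 BAF subunit genes was called at D1 (median 0.18, Dpf1 farthest from 0 at 0.57). The libraries were separated with Nanog BiD higher for 13 of the 30 (26.0% of all genes) and with Nanog BiD lower for 2 (19.6%).

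Of 34 tested Wnt pathway genes 1 was higher and 3 were lower. Over all genes 0.368% were higher and 0.962% lower, the shares to set beside each list in this paragraph. Among 34 Wnt pathway genes the receptor Fzd4 was higher, at 5.70 and 6.74 FPKM with Nanog BiD, against 1.77 and 2.11 with Nanog WT (a difference of 1.30 with SE 0.22 and adjusted p = 0.00164). The Wnt inhibitors Dkk2 (log2 difference -1.43) and Sfrp4 (-1.41) and the agonist Rspo1 (-1.12) were lower. Among 22 BMP and Id genes Id2, an inhibitor of bHLH factors, was at 8.35 and 6.04 FPKM against 18.6 and 13.5 (a difference of -1.06 with SE 0.28 and adjusted p = 0.0394). Of 10 adipocyte and lipid genes Fabp4, a fatty acid carrier (-1.59), and Plin2, which coats lipid droplets (-1.12), were lower. Alpl, an alkaline phosphatase (-1.08), and the cartilage collagen Col9a1 (-1.02) were lower among 9 chondro-osteogenic genes, and Sod3, the extracellular superoxide dismutase (-1.04), among 22 metallothionein and oxidative stress genes. Of the calls in this paragraph Fzd4 alone held whichever D1 library was left out.

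No gene was called among 33 Hox genes (Hoxc4 farthest from 0, -0.61), 21 FGF and ERK feedback genes (Etv1 0.86), 24 cholesterol synthesis genes, 25 glycolysis and hypoxia genes (Slc2a3 0.47), 20 p53 targets (Cdkn2b -0.59), 32 cytoplasmic ribosomal proteins (Rps27 -0.77) or 13 mitochondrially encoded genes (ND4L 0.47). Etv1 (adjusted p = 0.0272) missed the fold limit and not the limit on p. The marker lists of other cell types held no call: macrophage (Ctss -0.93), endothelial (Egfl7 0.91) and skeletal muscle (Mylpf -0.65). The macrophage markers summed to 25.4 and 12.5 FPKM with Nanog BiD, compared with 46.1 and 12.2 with Nanog WT, and the part of macrophage RNA in the differences was not tested.

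The called genes were set against the starting cells, as a description of genes chosen on these levels. Of the 162 genes lower with Nanog BiD, 111 were at least 1 log2 unit above MEF with Nanog WT, 12 at least 1 below and 39 in between. With Nanog BiD 46 were above, 32 below and 84 in between. The median distance from MEF was 1.61 with Nanog WT but 0.25 with Nanog BiD. Most lower genes thus stood above the fibroblast level with Nanog WT rather than below it with Nanog BiD. Of the 62 higher genes 50 were at least 1 above MEF with Nanog BiD and only 17 with Nanog WT. The share of all tested genes at least 1 above MEF was 8.48% for Nanog BiD and 9.03% for Nanog WT. The MEF libraries differed in some genes, such as Igfbp3 (115 and 11.3 FPKM).

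**Figure D4:**
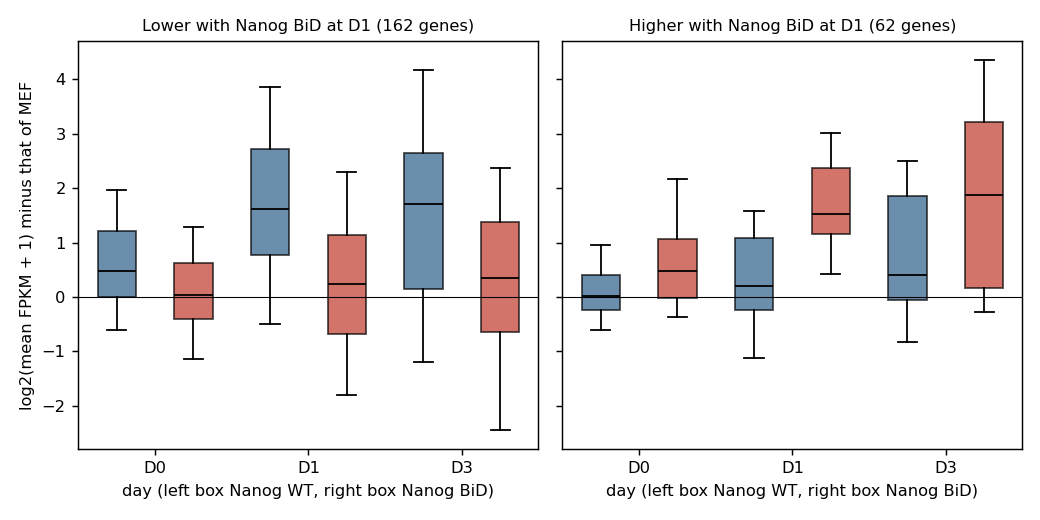
Distance from MEF of the genes called at D1, as log2(mean FPKM + 1) minus that of MEF, at D0, D1 and D3, with Nanog WT as the left and Nanog BiD as the right box of each pair (quartiles and median over genes, whiskers from the 10th to the 90th percentile). At D1 the lower genes have a median of 1.61 with Nanog WT but 0.25 with Nanog BiD.

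The genes were then followed to D0 and D3, in libraries whose levels do not enter the D1 difference but whose spread enters the shared variance behind the D1 calls. At D0 71 genes were higher (0.422%) and 57 lower (0.338%) with Nanog BiD, and at D3 210 were higher (1.25%) and 413 lower (2.45%). Of the 162 genes lower at D1, 24 (14.8%) were lower at D0 and 100 (61.7%) at D3, which are 42.1% of the genes lower at D0 and 24.2% of those lower at D3. Of the 62 higher genes, 13 (21.0%) were higher at D0 and 29 (46.8%) at D3, which are 18.3% and 13.8% of the genes higher on those days. No gene was called in the opposite direction on either day. The median of the lower genes was -0.44 at D0, -1.30 at D1 and -1.30 at D3, and that of the higher genes 0.48, 1.25 and 0.92. Without replicate 2 of Nanog WT at D0, 654 genes were called at D0 instead of 128.

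Some genes differed at D0 already. Nefm was at 0.972 and 0.911 FPKM with Nanog BiD, against 23.9 and 13.5 with Nanog WT (D0 log2 difference -3.29), Nefl at 1.35 and 0.794 against 18.9 and 12.8 (-3.01), and C1qtnf2 at 8.79 and 5.62 against 64.6 and 19.3 (-2.18). Vgf (-1.56), Ifi204 (-1.52) and Dkk2 (-1.69) were lower at D0 too. Nefm, Nefl, Vgf and C1qtnf2 were at higher levels in each D1 library than in either D0 library of the same combination. Among the higher genes Ss18 (1.10), Adcy5 (1.99), Slc6a15 (1.26) and Fzd4 (1.78) were called at D0, and the difference of Fzd4 was 0.01 at D3.

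Other genes parted between D0 and D1. The change of the difference from D0 to D1 was tested in the same limma model, and 58 genes passed (0.344%). The means of Igfbp3 at D0 were 12.5 ± 2.49 FPKM (SD, n = 2) for Nanog BiD and 13.4 ± 1.61 for Nanog WT, and those at D1 were 17.5 ± 2.34 and 80.1 ± 7.71 (change -2.04). Gpr39 was at 0.673 ± 0.337 and 1.69 ± 0.387 FPKM at D0 (change -2.37). Ptgs2 was at 66.4 ± 4.71 and 89.7 ± 3.40 FPKM at D0, above its D1 levels in both combinations, and the difference changed by -1.51. Of the genes lower at D1 23 had a called change below 0 and 0 above it, and of the higher genes 8 had one above 0 and 0 below. Since the genes were chosen at D1, this direction is in part fixed by the choice. With 1 library left out 11 to 80 changes were called.

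From D1 to D3 the difference changed for 120 genes (0.713%). Serpinb2 was at 4.50 and 5.49 FPKM with Nanog BiD, against 2.89 and 3.47 with Nanog WT at D3, and its difference went from -1.77 to 0.52 (change 2.29). Stmn2, a microtubule regulator of growing axons, was at 81.7 and 93.4 against 56.7 and 50.5 FPKM at D1 and at 205 and 193 against 22.7 and 27.8 at D3 (change 2.24). Ccn2 was at 4.28 and 6.21 against 46.1 and 54.4 FPKM at D3 (change -1.91). The last 2 genes thus parted further, in opposite directions. Dpt was at 0.189 and 0.392 against 6.69 and 8.15 FPKM at D3 (change -1.59). The changes of Il33 (D3 difference 2.34), Dlx1 (2.04) and Sele (-3.18) did not pass the test. Ptgs2 (-2.25), Igfbp3 (-2.57), Lum (-2.09) and Dusp14 (-2.47) were lower at D3 as well.

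**Figure D5:**
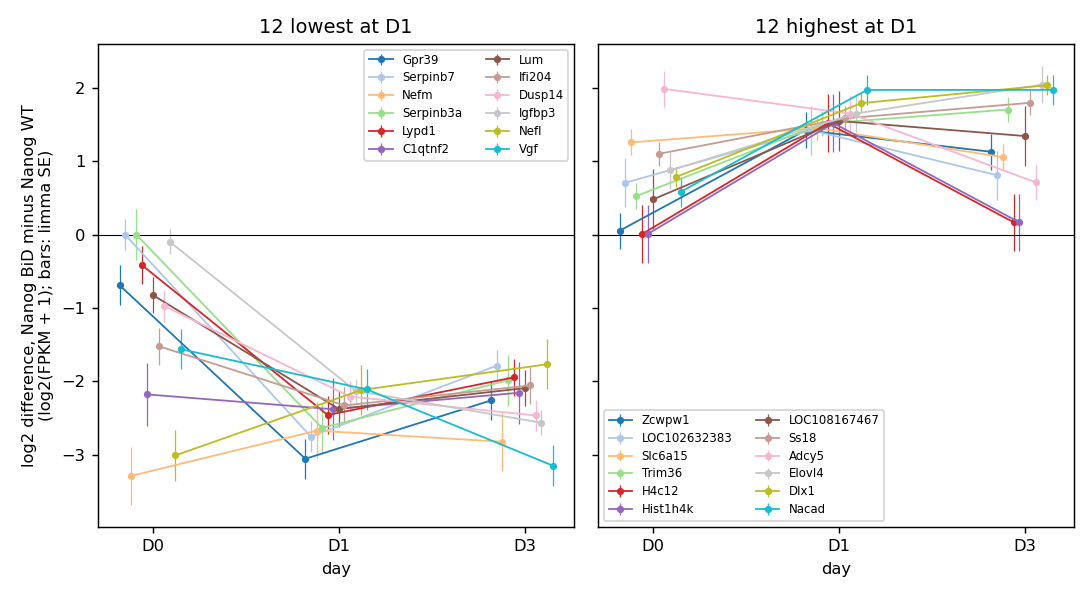
Log2 difference (Nanog BiD minus Nanog WT, log2(FPKM + 1)) at D0, D1 and D3 for the 12 lowest and the 12 highest named genes, with limma standard errors as bars. Serpinb7 and Serpinb3a are at 0 at D0, Igfbp3 is at -0.10, and Nefm and Nefl are at -3.29 and -3.01.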

How the data were processed

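RNA-seq of OG2 MEF at D1 with Nanog BiD or Nanog WT was taken from the deposited gene table of 34 libraries, 31 of them in the time course. Per the labels and the study's methods, the authors trimmed reads with Trim Galore 0.6.4, aligned them to mm10 with HISAT2 2.2.1 and estimated FPKM with StringTie 2.2.1. Annotation and strand use are not given in the sources used here. FPKM hold no counts and true depth is unknown, so no count test was run and no counting interval is given. The authors' own comparison used another method, and no values of it were used.

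Of 37108 genes, the 16842 that reached 1 FPKM in 2 or more time-course libraries were tested on log2(FPKM + 1) with limma 3.58.1 (R 4.3.3, trended eBayes), with 1 coefficient for each of 16 groups and 15 residual degrees of freedom. P-values were adjusted over all tested genes by Benjamini-Hochberg. Changes of a difference between days were contrasts in this fit. The script was tested on simulated data. Tables and figures were made with Python 3.11.15, pandas 2.3.3 and matplotlib 3.10.9.

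The members and lists were chosen with earlier results of these data known. Named genes were the delivered factors, the 12 highest and the 12 lowest called genes that were protein-coding or, with no biotype at hand, had no Gm, Mir or Rik symbol, with separated libraries and a mean of at least 2 FPKM in the higher group, every called gene of a list, and for a list with no call the gene farthest from 0, which for 2 lists is not reported here. Other genes are named as chosen after their values were seen. The alternatives were another pseudocount, filter, scaling, fold limit and source of spread, a replicate block, a GC and length correction, and each library left out. Same-numbered libraries share only a number, which was not used to pair them.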

Additional observations from a re-analysis of the deposited data

Results flagged for a closer look

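The Nanog BiD minus Nanog WT difference changed between days for the genes below, by the interaction term of the limma fit over all genes (adjusted p under 0.05 and a change of at least 1 on the log2 scale). From D0 to D1 58 genes passed. Among the named genes the difference moved down by the largest amounts for Serpinb7 (-2.76), Serpinb3a (-2.64), Gpr39 (-2.37), Lypd1 (-2.05) and Igfbp3 (-2.04). It also moved down for Rspo1 (-1.75), Serpinb2 (-1.62) and Ptgs2 (-1.51), and up for Nacad (1.39) and Dlx1 (1.01). Serpinb7 and Serpinb3a were listed at 0 in all D0 libraries, so their change is the D1 difference itself. Rspo1 had the opposite sign at D0 (0.62), where it was not called.

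From D1 to D3 120 genes passed. The difference moved up for Serpinb2 (2.29) and Stmn2 (2.24) and down for Ccn2 (-1.91) and Dpt (-1.59). Serpinb2 passed in both tests, with opposite signs.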

How the results depend on the processing

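With no fold limit, 551 genes were called at D1 (224 with it), 321 at D0 (128) and 1709 at D3 (623). With the spread of the compared groups alone the counts were 0 at each of D0, D1 and D3 (limma, where an unadjusted p under 0.05 was reached by 1294, 2526 and 2613), 2 for the change from D0 to D1 (58) and 14 for that from D1 to D3 (120). With a pseudocount of 0.1 they were 196 at D0, 1011 at D3, 29 from D0 to D1 and 62 from D1 to D3, with TPM rescaling 937 at D3 and 34 from D0 to D1, and with the spread of the D0 to D7 groups 16 from D0 to D1. With 1 library left out the counts were 136 to 214 at D1, 92 to 654 at D0, 555 to 810 at D3, 11 to 80 from D0 to D1 and 62 to 206 from D1 to D3. The D0 maximum came without replicate 2 of Nanog WT at D0. From D0 to D1 the count was 11 and 27 without replicates 2 and 1 of Nanog BiD at D0, 17 without replicate 1 of Nanog BiD at D1, and 25 and 38 without replicates 1 and 2 of Nanog WT at D1. From D1 to D3 it was 62 without replicate 1 of Nanog BiD and 71 without replicate 2 of Nanog WT at D1, 64 and 206 without replicates 1 and 2 of Nanog BiD at D3, and 72 and 76 without those of Nanog WT. The cause was not tested. Quantile normalization split the D0 calls into 51 higher and 61 lower, against 71 and 57.

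Of 49 called named genes 22 kept their call in every setting that tested them but the compared groups alone, and 0 reversed. Some settings did not test all 49, and the filter at 5 FPKM tested 43. A value near 0 changed sign without any call: with 1 library left out Pou5f1 ranged from -0.156 (without replicate 1 of Nanog BiD) to 0.538. With the replicate block over the time course 241 genes were called at D1, and 229 with a block within each day. Deviations of same-numbered libraries correlated at 0.135 at D1, 0.227 at D0 and -0.0647 at D3, so the numbers were not taken to pair the libraries. Merging alias rows gave 220 calls at D1 and testing protein-coding genes alone 191, both chosen after seeing the data. Over 15428 tested genes the D1 difference correlated with transcript length at a Spearman coefficient of 0.152 and with GC content at -0.00393. With both trends removed 207 genes were called at D1. FPKM hide depth, so low genes may be less precise than their SE.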
